A study of Canis lupus familiaris with 6 samples.

Results

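The genes described here lay on 1 side of their own line's control in every podoplanin knockout (KO) library of 2 canine melanoma lines, 2356 of the 10568 genes with enough counts. RNA was sequenced from CMM2 and from CMM12, each as 1 wild-type (WT) control library and 2 libraries of podoplanin KO cells, numbered KO 1 and KO 2, with no other treatment named. That made 6 libraries, 1 for each control and each KO. The labels do not say whether a KO number stands for a clone, a pool or a guide, or whether it means the same in both lines. Each line has a single control, so any peculiarity of a control library enters both of its KO comparisons.

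A gene was taken when its CPM (counts scaled to the library size and between libraries with TMM factors) were strictly above, or strictly below, the control of the own line in all 4 KO libraries, and when both controls or all 4 KO libraries held at least 10 counts. Of 30951 genes listed, 10568 met the count condition, and 2356 of these (22.3%) met the condition on sides. They comprised 1155 genes above control (10.9%) and 1201 below control (11.4%). Changes are given as differences of log2(CPM + 0.5) from the own control, a scale that understates changes of low genes, and a number in brackets after a gene's name is its mean change over the 4 KO libraries. The members were chosen by these CPM values of KO against control, so their KO values are a description with no test. Over the whole table of 12270 testable genes, the edgeR quasi-likelihood fit with line as a block called 0 for the KO effect (0%; 495 at an unadjusted p under 0.05), and DESeq2 called 9 (0.0733%).

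Podoplanin (gene PDPN) is a mucin-like membrane glycoprotein of mesothelial, lymphatic and glomerular cells that many tumours also carry. Its short cytoplasmic tail binds ezrin and moesin and so links the membrane to cortical actin, and its extracellular part binds the platelet receptor CLEC-2 and the hyaluronan receptor CD44. In melanoma and other tumours it is known for its links to cell shape, migration and platelet binding.

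The libraries held 9732927 to 11807835 counts, so that 3 counts corresponded to 0.259 to 0.294 CPM. CMM2 KO 1 lay closest to its control, with 0.896% of 8593 well-covered genes at least 2-fold apart, against 4.20% to 6.30% for the other 3 KO libraries. Of 13 melanocyte or melanoma markers, 4 to 9 were at 0 counts in a library. DCT and KIT were at 0 in all 6, and SOX10, MLANA, TYR and S100B had at most 0.0978 CPM, while MITF stood at 15.4 to 28.4 CPM and GPNMB at 33.0 to 322 CPM. TYRP1 and PAX3 were at 3.71 to 6.07 and 3.71 to 8.39 CPM in CMM12, and at 0 to 0.567 CPM in CMM2, and PMEL reached at most 2.64 CPM. Several defining pigment-lineage markers were thus at or near 0 in both labelled melanoma lines, and more of them in CMM2. The 4 epithelial markers found, of 7 listed, summed to 0 CPM in CMM2 and 4.65 to 24.2 CPM in CMM12, and immune markers to at most 2.77 CPM. Endothelial markers summed to 30.3 to 104 CPM, most of it LYVE1 (21.5 to 92.8 CPM), while CDH5 and PROX1 had at most 0.27 CPM. Neuronal or glial markers summed to 3.82 to 4.92 CPM in CMM2. In CMM12 they summed to 58.1 CPM in the control, 5.11 in KO 1 and 7.73 in KO 2.

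Genes on the same side in both lines were about as many as genes on opposite sides. Both KO libraries of CMM2 and both of CMM12 lay on the same side for 2356 genes and on opposite sides for 2366 (22.4%). A further 5846 genes (55.3%) had a KO pair split around its control or tied with it. At 1.2-fold or more in all 4 libraries the same-side and opposite-side counts were 367 and 397, at 1.5-fold 70 and 78, and at 2-fold 13 and 17. Among the same-side genes 236 lay above (2.23%) and 131 below (1.24%) at 1.2-fold, 54 (0.511%) and 16 (0.151%) at 1.5-fold, and 7 (0.0662%) and 6 (0.0568%) at 2-fold. Genes above and below control were thus about equal in number over the whole set, and those above were more numerous at 1.2-fold and at 1.5-fold. The TMM scaling puts the typical change near 0 (median −0.006 over all eligible genes), so the near balance over the whole set is not free of it.

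**Figure D1:**
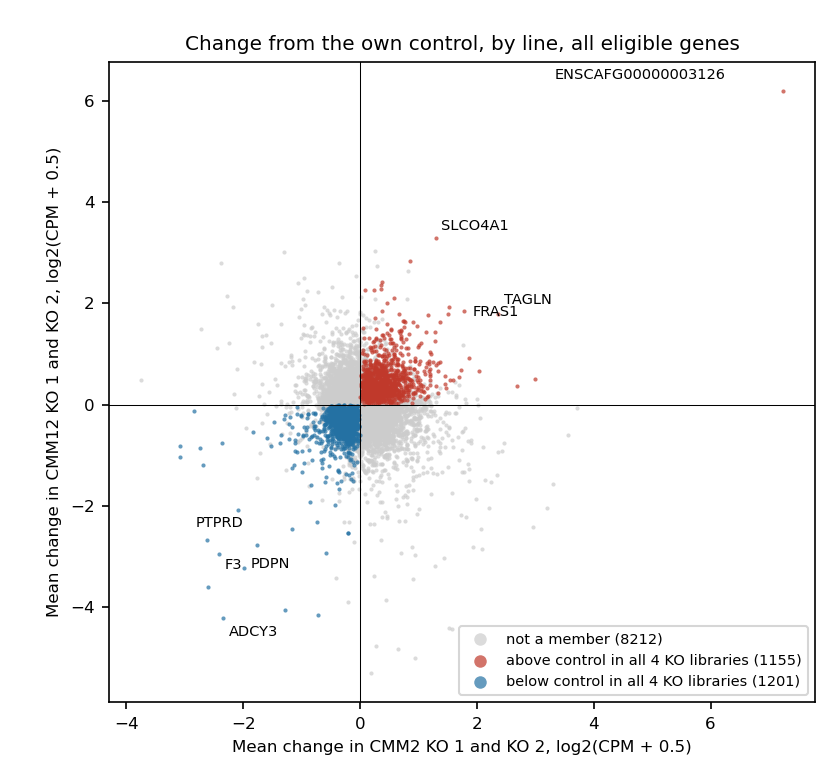
Each point is 1 of 10568 eligible genes, placed by its mean change from control over both KO libraries of CMM2 (x axis) and of CMM12 (y axis), in log2(CPM + 0.5). The 1155 red and 1201 blue points are the genes above and below control in all 4 KO libraries, and most lie near the origin, with PDPN, ADCY3, PTPRD and F3 at the lower left and SLCO4A1, FRAS1, TAGLN and a gene without a symbol at the upper right.

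The targeted gene, PDPN, was among the lowest members. It stood at 20.2 CPM in the CMM2 control, 5.59 and 5.58 in its KO 1 and KO 2, 87.7 in the CMM12 control, and 15.2 and 9.98 in its KO 1 and KO 2. All 4 KO libraries lay below both controls. The level in KO was 27.6% of control in both CMM2 KO libraries, 17.4% in CMM12 KO 1 and 11.4% in CMM12 KO 2, a mean change of −2.27 ± 0.63 (SD, n = 4). The sources used here do not give the edited part of the gene, and RNA counts over the whole gene do not show whether the protein was lost.

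Besides PDPN, 5 genes lay at least 2-fold below control in all 4 KO libraries: PTPRD, ADCY3, F3, CDH11 and ZNF567. PTPRD, a receptor-type protein tyrosine phosphatase that acts as a tumour suppressor in several cancers, had 27 counts in the CMM2 control and 31 in the CMM12 control and 0 in every KO library. Against a floor of 3 counts per library, it was at least 9.08-fold lower in each KO library. The controls, at 2.58 and 2.67 CPM, were themselves low, and no other of the 15 lowest genes was at 0 in all 4 KO libraries. ADCY3, an adenylyl cyclase that makes cyclic AMP from ATP, stood at 2.48 CPM in the CMM2 control, 0 and 0.189 in its KO 1 and KO 2, 97.99 in the CMM12 control, and 2.01 and 10.7 in its KO 1 and KO 2. Its control level differed widely between the lines, and the lowest CMM12 KO value was under the CMM2 control. F3 encodes tissue factor, the membrane protein that starts blood coagulation. It stood at 10.8 CPM in the CMM2 control, 4.63 and 0.378 in its KO 1 and KO 2, 24.8 in the CMM12 control, and 1.55 and 4.70 in its KO 1 and KO 2. The least affected library was KO 1 in CMM2 and KO 2 in CMM12, so the order of the KO numbers was not shared. CDH11, a cadherin of mesenchymal cells, stood at 9.16 CPM in the CMM2 control, 3.23 and 4.44 in its KO 1 and KO 2, 48.7 in the CMM12 control, and 13.1 and 5.38 in its KO 1 and KO 2, with every KO library below the lower of the controls except CMM12 KO 1. ZNF567, a zinc finger gene, was at 0 CPM in KO 2 of both lines and at 1.75 and 0.821 CPM in KO 1, against 3.72 and 7.07 in the controls.

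The next of the 15 lowest genes, ranked by the smallest of the 4 changes, included enzymes and a kinase scaffold. HPGD, the dehydrogenase that inactivates prostaglandins, had 2.96 CPM against 1.57 and 1.32 in CMM2, and 41.1 against 20.1 and 8.90 in CMM12 (control against KO 1 and KO 2). TMLHE, which begins carnitine synthesis, had 3.72 CPM against 0 and 0 in CMM2, and 9.66 against 5.38 and 5.09 in CMM12. Its loss of counts was complete in CMM2 and partial in CMM12. MAPK8IP1 encodes JIP1, a scaffold of the JNK kinase cascade. Its levels were alike in both lines: 51.7 CPM against 32.7 and 28.1 in CMM2, and 50.9 against 30.5 and 30.3 in CMM12. The mean change of MAPK8IP1 was −0.75 ± 0.09 (SD, n = 4), and of the 15 lowest genes only PTPRD had a smaller spread. IGF2BP1, an RNA-binding protein of fetal tissue and tumours, was uneven between the lines: 59.1 CPM against 37.4 and 33.95 in CMM2, and 10.2 against 0.0912 and 0.0978 in CMM12. Only the CMM12 libraries came close to 0 for IGF2BP1, with 1 count in each CMM12 KO library. MARS2, the mitochondrial methionyl-tRNA synthetase, had a mean change of −0.69 ± 0.12 (SD, n = 4), ZDHHC18, a palmitoyltransferase, −0.85 ± 0.30 (SD, n = 4), RAB30, a small GTPase of the Golgi, −0.69 ± 0.12 (SD, n = 4), and TMEM62 −0.80 ± 0.36 (SD, n = 4).

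Of the genes above control by at least 2-fold in all 4 KO libraries, 6 had a symbol: EGR1, SLCO4A1, SOX5, TAGLN, SYTL4 and PCDHB16. TAGLN encodes transgelin, an actin-binding protein of smooth muscle and of myofibroblast-like cells. It stood at 15.4 CPM in the CMM2 control, 53.8 and 121 in its KO 1 and KO 2, 33.5 in the CMM12 control, and 204 and 67.6 in its KO 1 and KO 2. All 4 KO libraries lay above both controls, by 2.02-fold to 7.89-fold over the own control, and the highest KO was KO 2 in CMM2 and KO 1 in CMM12. EGR1, an immediate early transcription factor induced by growth signals through ERK, stood at 2.67 CPM in the CMM2 control, 6.81 and 10.9 in its KO 1 and KO 2, 7.68 in the CMM12 control, and 17.2 and 53.3 in its KO 1 and KO 2. KO 2 was the higher of each pair, and CMM2 KO 1 stayed under the CMM12 control. SOX5, a transcription factor of neural crest and cartilage, had 1.81 CPM against 4.19 and 4.92 in CMM2, and 2.07 against 5.197 and 8.02 in CMM12. Every SOX5 value in KO lay above both controls. SLCO4A1, an organic anion and thyroid hormone transporter, had 0.668 CPM against 2.80 and 1.99 in CMM2, and 0.776 against 17.2 and 8.32 in CMM12, with both controls under 10 counts. SYTL4, a Rab27 effector of vesicle exocytosis, had 3.25 CPM against 6.99 and 10.5 in CMM2, and 2.33 against 4.92 and 7.83 in CMM12. PCDHB16, a clustered protocadherin, went from 4 and 5 counts in the controls to 13 to 21 in KO, and reads of its near-identical neighbours in the cluster may be split between copies.

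The seventh, the Ensembl gene ENSCAFG00000003126, has no symbol in the deposited table and was chosen after its values were seen. It had 0 counts in the CMM2 control and 1 in the CMM12 control, against 776 and 874 counts in CMM2 KO 1 and KO 2 and 909 and 218 in CMM12 KO 1 and KO 2. Against 3 counts, it was at least 237-fold higher in CMM2 KO 1 and at least 289-fold higher in CMM2 KO 2. Its mean change, 6.71 ± 1.00 (SD, n = 4), was the largest of the set. Whether these reads came from the dog gene or from sequence brought in to make the KO was not tested, so the folds may not describe expression of a dog gene.

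**Figure D2:**
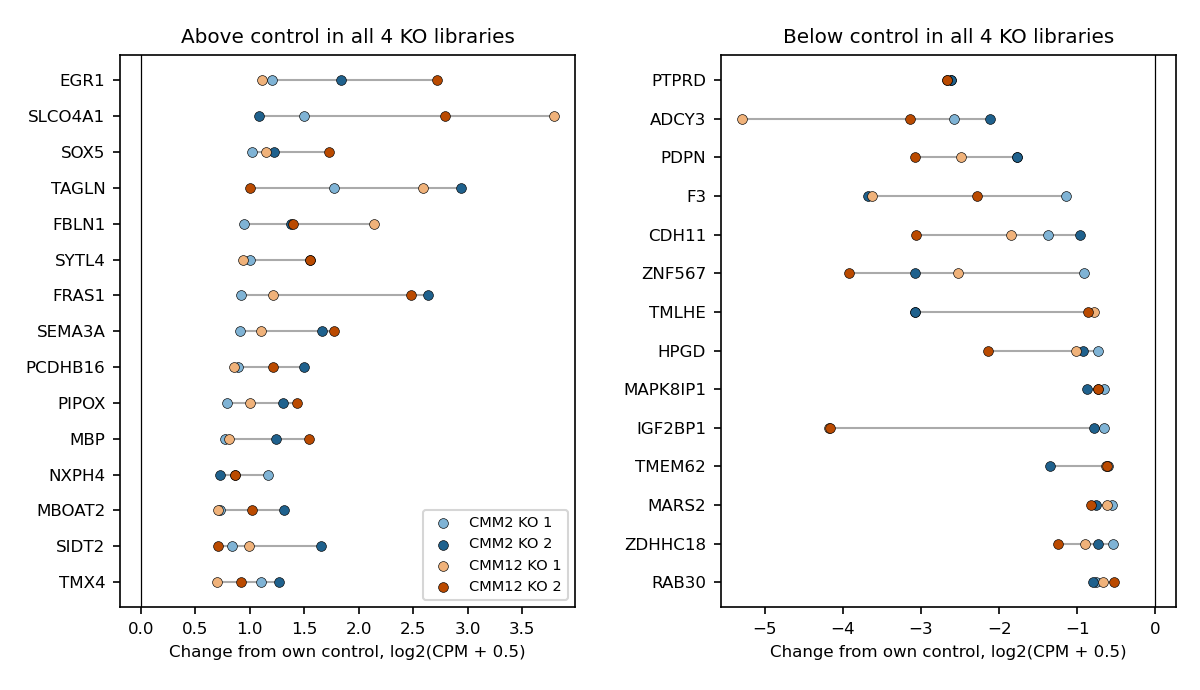
The 15 genes with a symbol highest above control (left) and 14 of the 15 furthest below (right), ordered by the smallest of the 4 changes. Points are the change from the own control in each KO library, in log2(CPM + 0.5), and the grey line spans the 4, from narrow for MAPK8IP1 to wide for SLCO4A1, ADCY3 and IGF2BP1.

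Among the other genes of the 15 highest were secreted and basement membrane proteins. FBLN1, a fibulin of the extracellular matrix, had 11.5 CPM against 22.7 and 30.8 in CMM2, and 7.25 against 33.6 and 19.96 in CMM12. SEMA3A, a secreted guidance cue that binds neuropilins, had 13.6 CPM against 25.9 and 43.9 in CMM2, and 51.2 against 111 and 176 in CMM12. FRAS1, a basement membrane protein, had 19.9 CPM against 38.1 and 127 in CMM2, and 1.73 against 4.65 and 11.9 in CMM12. In SEMA3A and FRAS1 KO 2 was the higher of each pair, and in FBLN1 KO 2 was the higher in CMM2 only. The rest were membrane and metabolic genes. PIPOX, a peroxisomal oxidase of sarcosine and pipecolic acid, had a mean change of 1.13 ± 0.29 (SD, n = 4). The lysosomal membrane protein SIDT2 had 1.05 ± 0.42 (SD, n = 4), the thioredoxin-related TMX4 of the endoplasmic reticulum 1.00 ± 0.24 (SD, n = 4), and the phospholipid acyltransferase MBOAT2 0.94 ± 0.28 (SD, n = 4). MBP, the myelin basic protein gene, had 1.09 ± 0.37 (SD, n = 4), and NXPH4, a neurexophilin, 0.91 ± 0.19 (SD, n = 4).

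**Figure D3:**
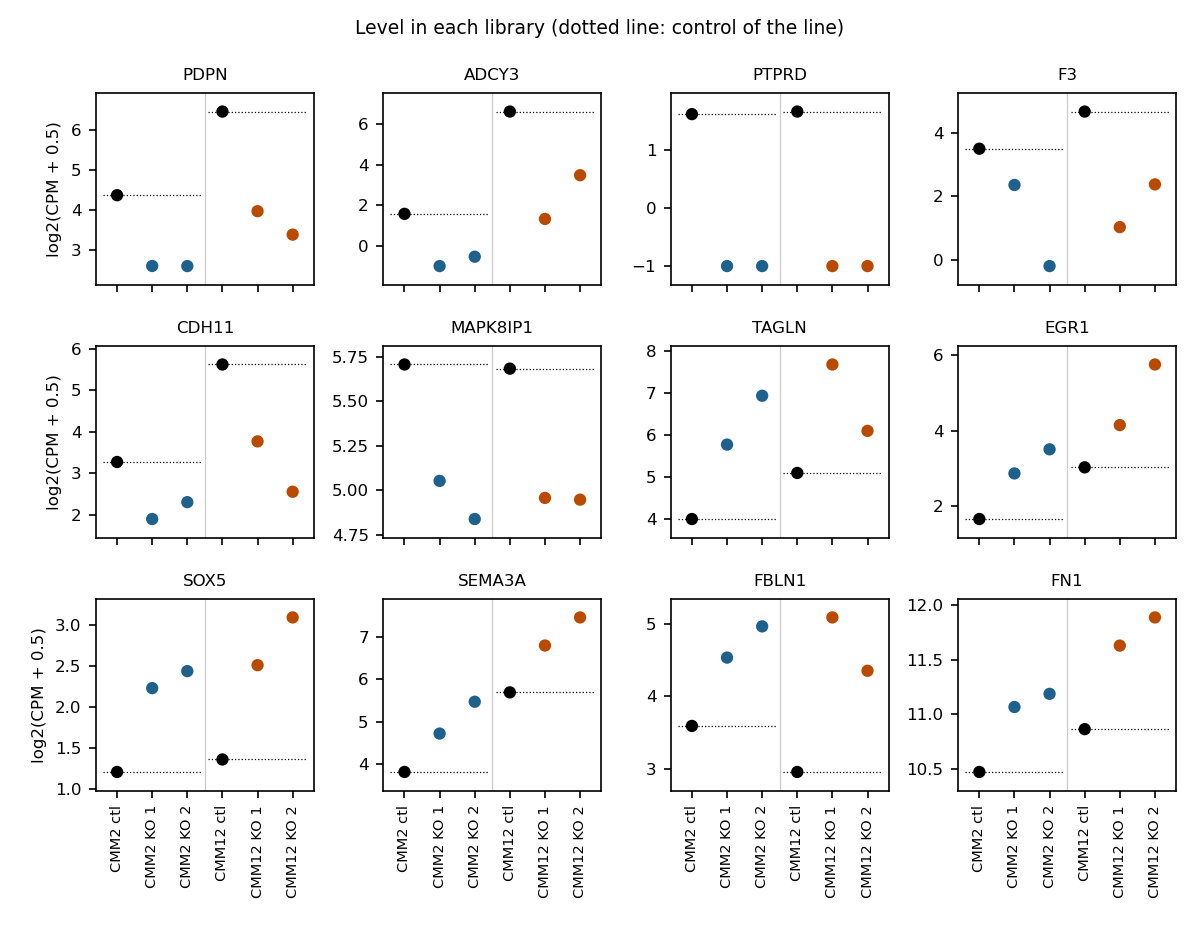
Level of 12 members in each library, in log2(CPM + 0.5), with black points for controls, blue for CMM2 KO and orange for CMM12 KO. Dotted lines mark the control of each line, and every KO point lies on 1 side of it, for example PDPN below and TAGLN above.

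Lysosomal genes were the list with the largest count above control. The lysosome degrades macromolecules with acid hydrolases such as the cathepsins, and the factors TFEB and TFE3 switch on its genes. Of 32 eligible lysosome and autophagy genes, 13 lay above control in all 4 KO libraries (40.6%, against 10.9% of all eligible genes) and 1 below. The median change of the 32 was 0.28, against −0.01 over all eligible genes. CTSK, a collagen-degrading cathepsin, had 48.8 CPM against 86.8 and 149 in CMM2, and 37.4 against 59.4 and 96.4 in CMM12. CTSH, an aminopeptidase cathepsin, had 1.24 CPM against 3.84 and 2.08 in CMM2, and 8.63 against 12.6 and 20.3 in CMM12. The cathepsin CTSB, a cysteine protease, had 287 CPM against 339 and 784 in CMM2, and 322 against 427 and 428 in CMM12. GLA, the alpha-galactosidase, had 10.98 CPM against 12.6 and 36.5 in CMM2, and 13.6 against 16.5 and 15.7 in CMM12. For CTSB and GLA, CMM2 KO 2 stood far above the other 3 KO libraries relative to control. The others included ATP6V0D1, LAMP1, LAMP2, TFE3, GAA, CTSD, CTSF and TPP1, with mean changes of 0.37 (ATP6V0D1) to 0.57 (CTSD). CTSC, which activates serine proteases of immune cells, was the 1 member below (30.9 CPM against 22.1 and 24.6 in CMM2, and 30.97 against 14.7 and 26.9 in CMM12). With CMM2 KO 2 left out the counts were 13 above and 2 below, against 18.4% and 17.8% of all eligible genes, and with the median change of the chromosome subtracted they were 13 and 1.

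Among nuclear genes of oxidative phosphorylation the members lay mostly on the other side. These genes encode subunits of the respiratory chain and of the ATP synthase of mitochondria. Of 35 eligible, 11 lay below control in all 4 KO libraries (31.4%, against 11.4%) and 1 above, with a median change of −0.12. The changes were small. ATP5F1A, the alpha subunit of the ATP synthase, had 1916 CPM against 1622 and 1341 in CMM2, and 1204 against 724 and 951 in CMM12. NDUFS1, a NADH dehydrogenase subunit, had 210.1 CPM against 182 and 172 in CMM2, and 182 against 111 and 111 in CMM12. The NADH dehydrogenase subunits NDUFB3 and NDUFV2 had mean changes of −0.32 ± 0.05 (SD, n = 4) and −0.28 ± 0.08 (SD, n = 4). The others below were NDUFA10, ATP5PB, UQCRFS1, UQCRC2, UQCRC1, COX5A and COX8A, from several complexes of the chain, and NDUFS7 (0.09) lay above. The median of the list in CMM12 KO 1 was 0.04, so that list as a whole was not lower there. Of the 33 placed on a chromosome, 10 lay below and 1 above, and 8 and 0 after the chromosome median was subtracted.

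Actin-related genes, which build and tense the cytoskeleton and many of which are targets of the serum response factor, had 8 of 27 above control (29.6%) and 0 below, with a median change of 0.18. After TAGLN came TPM2, a tropomyosin, with 10.02 CPM against 14.9 and 14.4 in CMM2, and 4.57 against 13.2 and 13.8 in CMM12. TGFB1I1 (Hic-5), a focal adhesion adaptor, had 82.1 CPM against 133 and 115 in CMM2, and 25.4 against 37.3 and 29.5 in CMM12. TPM4, another tropomyosin, had 1282 CPM against 1426 and 1614 in CMM2, and 797 against 1209 and 956 in CMM12. The other 4, FLNA, TAGLN2, VCL and CFL1, had mean changes of 0.20 (CFL1) to 0.47 (FLNA). Without CMM2 KO 2, 11 of 27 lay above and 0 below, against 18.4% and 17.8% of all eligible genes when 3 libraries have to agree.

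Matrix glycoproteins had 7 of 17 above (41.2%) and 0 below, with a median change of 0.23. The list median was 0.37 and 0.71 in the CMM2 KO libraries and −0.21 and 0.14 in CMM12 KO 1 and KO 2, so the list as a whole was not higher in CMM12 KO 1. FN1 encodes fibronectin, the adhesive glycoprotein that binds integrins. It had 1421 CPM against 2144 and 2331 in CMM2, and 1864 against 3164 and 3782 in CMM12, and all 4 KO libraries lay above both controls, a mean change of 0.77 ± 0.18 (SD, n = 4). VCAN (versican, a proteoglycan) had 683 CPM against 798 and 1138 in CMM2, and 387 against 479 and 471 in CMM12. LAMB2, a laminin chain, had 127 CPM against 149 and 144 in CMM2, and 156 against 188 and 224 in CMM12. FBLN1 (above), BGN, THBS1 and LAMB1 were the others. The list of fibrillar collagens and of genes that make and crosslink collagen had 5 of 23 above (21.7%) and 0 below, all 5 of them enzymes: the prolyl hydroxylase subunits P4HA1 (0.53), P4HA2 (0.39) and P4HA3 (0.52) and the lysyl oxidases LOXL3 (0.50) and LOX (0.22). No fibrillar collagen gene was a member, and the median of the list was 0.45 and 1.12 in the CMM2 KO libraries and −0.75 and −0.31 in those of CMM12. Without CMM2 KO 2 the collagen list had 5 of 23 above (21.7%), against 18.4% of all eligible genes. Fibroblast markers, among them COL1A1, COL1A2 and COL3A1, summed to 1455, 3271 and 11163 CPM in the CMM2 control, KO 1 and KO 2. In CMM12 they summed to 8010.4, 3381 and 5288 CPM. Their sum, mostly these collagens, thus lay above control in CMM2 KO and below it in CMM12 KO. The markers did not move together in CMM12. The collagens and LUM were lower in both KO libraries, and DCN and FAP were mixed. THY1 (166 CPM against 207 and 450), PDGFRA and PDGFRB were higher in both. In bulk RNA, fewer cells of a type and less RNA per cell cannot be told apart. All 9 markers were above 0 in the CMM12 control, THY1 was at 0 in all CMM2 libraries, and the 2 members among them were the growth factor receptors PDGFRA (0.63) and PDGFRB (0.89).

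**Figure D4:**
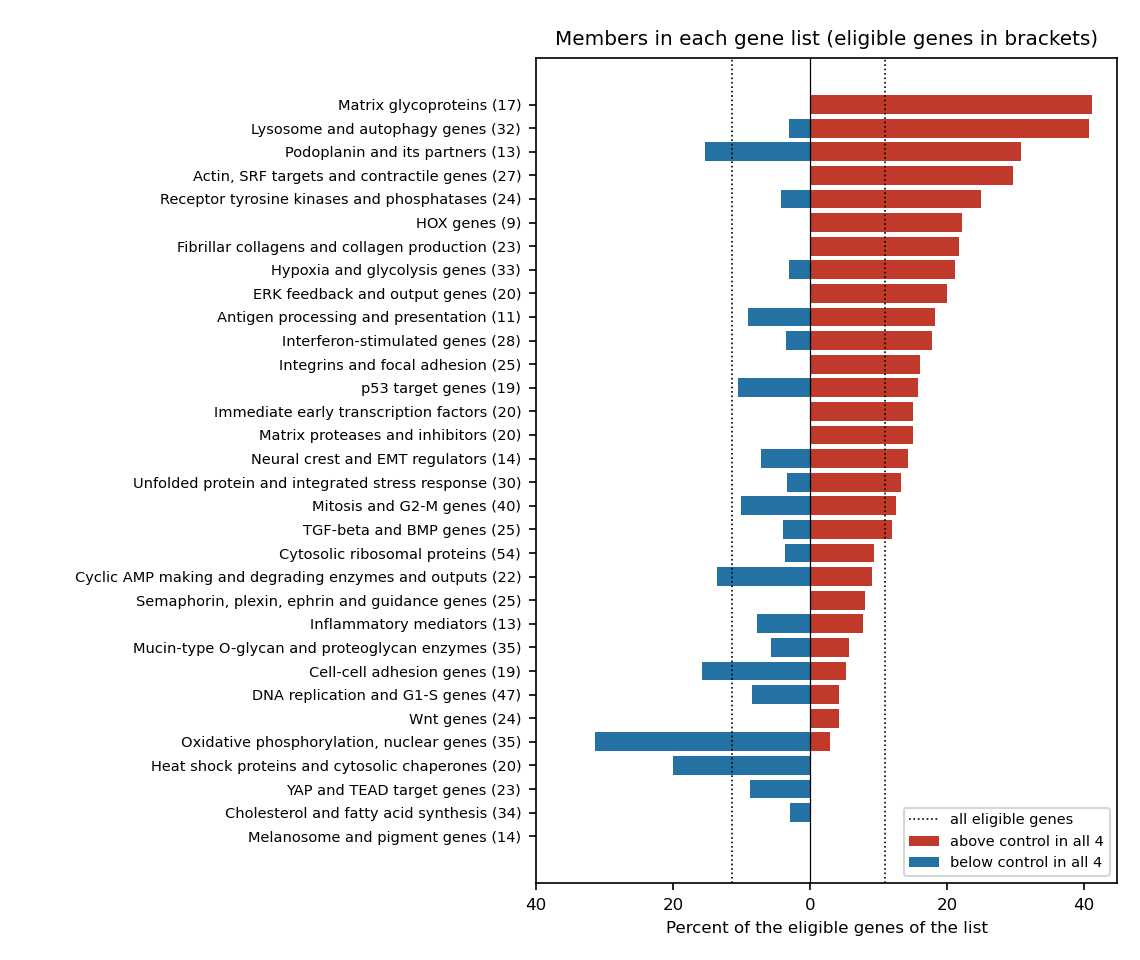
Bars give the percent of eligible genes of each list (number in brackets) that lay above control in all 4 KO libraries (red, right) or below it (blue, left), for the lists shown, each with 9 or more eligible genes. Dotted lines mark the same over all eligible genes, 10.9% and 11.4%, which the matrix glycoprotein and lysosome lists exceed on the right and the oxidative phosphorylation list on the left.

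Over all eligible genes 10.9% lay above and 11.4% below, the shares beside which the signalling lists stand. Receptor tyrosine kinases and phosphatases had 6 of 24 above (25%) and 1 below, which was PTPRD. The receptor phosphatase PTPRN had 22.2 CPM against 31.7 and 46.7 in CMM2, and 6.64 against 14.2 and 20.6 in CMM12, and PTPRK, which acts at cell contacts, had 50.5 CPM against 70.7 and 59.1 in CMM2, and 9.92 against 90.5 and 30.7 in CMM12. INSR, the insulin receptor, had 3.63 CPM against 4.89 and 27.9 in CMM2, and 23.03 against 34.9 and 30.03 in CMM12. Relative to control, PTPRK had 1 KO library far above the others, CMM12 KO 1, and INSR had 1, CMM2 KO 2. ERK feedback and output genes had 4 of 20 above (20%) and 0 below: the ETS factor ETV1 (0.86), cyclin D1 or CCND1 (0.58) and the ERK inhibitors SPRY4 (1.22) and SPRY1 (0.53). Without CMM2 KO 2 the ERK list had 4 of 20 above and 1 below, near the 18.4% above of all eligible genes. SPRY4 stood at 14.2 CPM in the CMM2 control, 15.9 and 32.4 in its KO 1 and KO 2, 5.43 in the CMM12 control, and 15.8 and 25.04 in its KO 1 and KO 2. Immediate early factors had 3 of 20 above (15%) and 0 below, namely EGR1, KLF6 (0.48) and JUNB (0.56). In CMM2 the median of the ERK list was −0.11 in KO 1 and −0.01 in KO 2, against 0.66 and 0.35 in CMM12, so the list median lay above 0 in CMM12 alone. Of genes that make, break or read cyclic AMP, 2 of 22 lay above (9.09%) and 3 below (13.6%), near the shares over all eligible genes. Those below were ADCY3, the phosphodiesterase PDE4D (−0.34) and the kinase subunit PRKAR2A (−0.34).

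Hypoxia and glycolysis genes had 7 of 33 above (21.2%, against 10.9% of all eligible genes) and 1 below. BNIP3, a mitophagy receptor induced by low oxygen, had 184 CPM against 312 and 231 in CMM2, and 100.4 against 229 and 199 in CMM12. The aldolase ALDOC had 70.3 CPM against 86.7 and 94.2 in CMM2, and 42.4 against 56.7 and 60.8 in CMM12, and the glycolytic kinase PGK1 had 631 CPM against 722 and 922 in CMM2, and 762 against 1165 and 927 in CMM12. ADM, the vasodilator peptide adrenomedullin, was the 1 member below (493 CPM against 467 and 219 in CMM2, and 86.3 against 65.4 and 82.7 in CMM12). Without CMM2 KO 2, 14 of 34 hypoxia genes lay above, against 18.4% of all eligible genes. Interferon-stimulated genes had 5 of 28 above (17.9%) and 1 below, with UBA7, the E1 enzyme for ISG15, at 8.30 CPM against 12.9 and 12.7 in CMM2, and 4.23 against 6.47 and 11.3 in CMM12. OAS1 (0.66), SAMD9L (0.56) and STAT2 (0.35) lay above and IFIT5 (−0.25) below.

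Podoplanin's own partners were mixed. Of 13 eligible, 4 lay above (30.8%) and 2 below (15.4%), PDPN included, against 10.9% and 11.4% of all eligible genes. CD44, the hyaluronan receptor that binds podoplanin, had 363 CPM against 409.8 and 621 in CMM2, and 365 against 579 and 592 in CMM12, and the linker moesin (MSN) had 324 CPM against 347 and 602 in CMM2, and 359 against 447 and 395 in CMM12. RHOA (0.13) and the integrin subunit ITGB1 (0.24) also lay above, and the kinase ROCK2 (−0.23) below, each by little. Cell-cell adhesion genes had 1 of 19 above, the junction protein JUP or plakoglobin (0.94), and 3 below (15.8%), among them CDH11 and the nectin NECTIN3 (−0.70). Integrin and focal adhesion genes had 4 of 25 above (16%) and 0 below. Matrix proteases and inhibitors had 3 of 20 above (15%) and 0 below, and without CMM2 KO 2 they had 3 above and 3 below. The 3 above were TIMP1 and the cathepsins CTSK and CTSB, which the lysosome list also counts. TIMP1, an inhibitor of metalloproteinases, had 232 CPM against 282 and 1272 in CMM2, and 466 against 1117 and 1855 in CMM12.

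Most lists of growth and lineage showed few members or a balance, beside 10.9% above and 11.4% below over all eligible genes. Cytosolic ribosomal proteins had 5 of 54 above and 2 below, DNA replication genes 2 of 47 above and 4 below, and mitotic genes 5 of 40 above and 4 below. Heat shock proteins and chaperones had members on the lower side only, 0 of 20 above and 4 below (20%). They were TCP1 (−0.37), DNAJB4 (−0.26), HSP90AA1 (−0.33) and FKBP4 (−0.33). The list medians were −0.20 and −0.38 in the CMM2 KO libraries and 0.11 and 0.06 in those of CMM12. The list as a whole was thus lower in CMM2 alone. HSP90AA1 and FKBP4 changed most in CMM2 KO 2 (−0.90 and −0.77) and least in CMM12 KO 2 (−0.04 and −0.001). p53 targets had 3 of 19 above and 2 below. CDKN1A (p21), the cell cycle inhibitor, had 58.03 CPM against 91.1 and 83.5 in CMM2, and 2.59 against 11.7 and 14.2 in CMM12. The p53 list as a whole was thus split, while CDKN1A lay above its own control in every KO library and stayed under the CMM2 control in both CMM12 KO libraries. Cholesterol and fatty acid synthesis genes had 0 of 34 above and 1 below, and none of 14 eligible melanosome and pigment genes was a member. The medians of the cholesterol list were 0.14 and 0.45 in the CMM2 KO libraries and −0.53 and −0.38 in those of CMM12, opposite in the lines. Of 14 neural crest and mesenchymal transition regulators, SOX5 and ZEB2 (0.27) lay above and SNAI1 (−0.64) below, and of 23 YAP and TEAD targets only F3 and AMOTL2 (−0.68), both below. Among the remaining lists, unfolded protein genes had 4 of 30 above and 1 below, and TGF-beta and BMP genes 3 of 25 and 1. O-glycan and proteoglycan enzymes had 2 of 35 and 2, guidance genes 2 of 25 and 0, Wnt genes 1 of 24 and 0, and antigen presentation genes 2 of 11 and 1. Inflammatory mediators had 1 of 13 and 1, HOX genes 2 of 9 and 0, stem cell markers 2 of 8 and 0, and oncofetal RNA-binding genes 0 of 5 and 1, which was IGF2BP1.

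Within the set, sizes were modest and differed by library. The median change of genes above control was 0.24 in CMM2 KO 1, 0.39 in CMM2 KO 2, 0.35 in CMM12 KO 1 and 0.36 in CMM12 KO 2. For genes below it was −0.18, −0.30, −0.32 and −0.32 in the same order. The smallest of a gene's 4 changes fell in CMM2 KO 1 for 937 of 2356 genes and the largest in CMM2 KO 2 for 782, much as over all 10568 eligible genes (4033 and 3688). The median of the smallest change was 0.11 above and 0.09 below, so that many genes came close to control in at least 1 library. Genes above had a median mean level of 28.9 CPM and genes below 49.1 CPM, against 37.8 CPM over all eligible genes. Of genes under 5 CPM, 13.04% lay above and 9.25% below, and of genes at 100 CPM or more, 8.92% and 14.5%. The count condition bears on the low genes. Members that met it through the KO libraries alone were 44 above and 0 below, and through the controls alone 1 above and 56 below. For these the way of entry favoured 1 side, so the shares at low levels are not free of the rule. The median deposited length was 1800 bases above, 1919 below and 1829 over all eligible. In the TPM values, 1972 of the 2356 genes kept their side in all 4 KO libraries (939 above and 1033 below) and 0 were on the opposite side in all 4. Of the genes named here with a change, OAS1, P4HA2, P4HA3, NDUFS7, ROCK2, FKBP4 and CACNB4 were among those with at least 1 KO library off that side in TPM.

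The contrast of CMM12 with CMM2 was not used by the rule. With genotype in the model, the quasi-likelihood test of edgeR called 3170 of 12270 genes at an adjusted p under 0.05 (25.8%) and 2478 of the 10568 eligible genes (23.4%). Of the genes above control 382 were called (33.1%), 249 higher in CMM12 (against 11.5% of eligible genes) and 133 lower (against 12%). Of those below 330 were called (27.5%), 132 higher and 198 lower. The rule keeps genes whose KO libraries lie on 1 side of control, so the residual spread this test uses is not independent of it, and the shares were not compared by a test. Leaving out CMM2 KO 1, CMM12 KO 1 or CMM12 KO 2 lowered the 712 members called to 319, 441 and 353. Among the members with the largest line differences, ADCY3 was higher in CMM12 by a log2 of 5.49 (SE 0.78, adjusted p = 0.0038), MME, a membrane metallo-endopeptidase, by 4.36 (SE 0.38, adjusted p = 0.00086), and TMLHE by 3.92 (SE 1.16, adjusted p = 0.044). Lower in CMM12 were IGF2BP1 at −5.02 (SE 0.99, adjusted p = 0.011), LMO7, an actin-linked junction protein, at −4.79 (SE 0.24, adjusted p = 0.00029), and the calcium channel subunit CACNB4 at −4.06 (SE 0.56, adjusted p = 0.0033). For TMLHE, IGF2BP1 and CACNB4 the controls alone differed less. They stood at 3.72 CPM in CMM2 against 9.66 in CMM12 for TMLHE, 59.1 against 10.2 for IGF2BP1 and 10.8 against 1.55 for CACNB4. KO libraries at 0 counts (TMLHE in CMM2), 1 count (IGF2BP1 in CMM12) or 3 counts (CACNB4 in CMM12) widened the fitted differences. The line difference of LMO7 was far larger than its KO change, with 95.4 CPM against 129.5 and 137 in CMM2, and 3.28 against 6.199 and 3.62 in CMM12.

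KO number 2 was set against number 1 across lines, with line in the model. edgeR called 0 of 12270 genes (0%; 560 at an unadjusted p under 0.05, 58 of them members, smallest adjusted p 0.267). DESeq2 called 27 (0.22%), 22 of them eligible (0.208% of eligible genes) and 6 of them members: GALNT6, PTK2B, FRAS1 and TIMP1, higher in KO 2, and TDRD12 and WWC1, lower. GALNT6, an enzyme that starts mucin-type O-glycans, had 101 CPM against 128 and 207 in CMM2, and 46.2 against 58.6 and 149.8 in CMM12, so that KO 2 lay well above KO 1 in both lines. The change was larger in KO 2 of both lines for 844 members (35.8%, against 32.8% of eligible genes) and larger in KO 1 of both for 331 (14.0%, against 16.2%).

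Neighbouring members mostly lay on the same side. Of 9519 eligible genes with an own symbol, 9270 were found in a RefSeq gene table of another dog assembly, used here for order and chromosome alone. Of 9230 pairs of neighbouring eligible genes, 488 (5.29%) were pairs of members. Of these, 378 (77.5%) lay on the same side, 174 above and 204 below. The same-side share was 75.6% at 10 places apart, 66.7% at 50 and 68.2% at 100. Pairs of members were 5.26% of all pairs at 100 places. There were 23 runs of 4 or more neighbours on 1 side. Of these, chosen after their values were seen, PPIL4, GINM1, KATNA1, LATS1, NUP43 and PCMT1 formed a run of 6 below, and TNFRSF6B, ARFRP1, ZGPAT, SLC2A4RG, TPD52L2 and ZNF512B a run of 6 above. On 12 of 39 chromosomes with 50 or more placed genes, at least 80% of the members lay on 1 side, above on 5 and below on 7. These 12 chromosomes held 768 of the 2051 placed members. On 2 of them no member lay above control, with 14 of 81 and 5 of 71 placed genes below, and on another 64 of 174 placed genes lay below and 1 above.

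The median change of a chromosome's genes ranged from −0.27 to 0.25 in CMM2 KO 1, −0.31 to 0.67 in CMM2 KO 2, −0.83 to 0.47 in CMM12 KO 1 and −0.56 to 0.37 in CMM12 KO 2. It was above 0 in all 4 KO libraries on 4 chromosomes and below 0 in all 4 on 2. After subtracting the chromosome's median in each library, 1099 genes lay above (11.9% of placed genes) and 1117 below (12.1%), of which 1368 were members before. The same-side share of neighbouring pairs of such genes was then 66.1%. All 14 placed genes of the 15 highest, all of the 15 lowest and 61 of the 62 placed genes at 1.5-fold or more stayed members. Small changes did not all stay: RHOA, ZEB2, PGK1, P4HA2, NDUFS7, TCP1 and DNAJB4 were among the named genes that left the set. Chromosome copy number was not measured here, and its part in these counts was not tested.

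**Figure D5:**
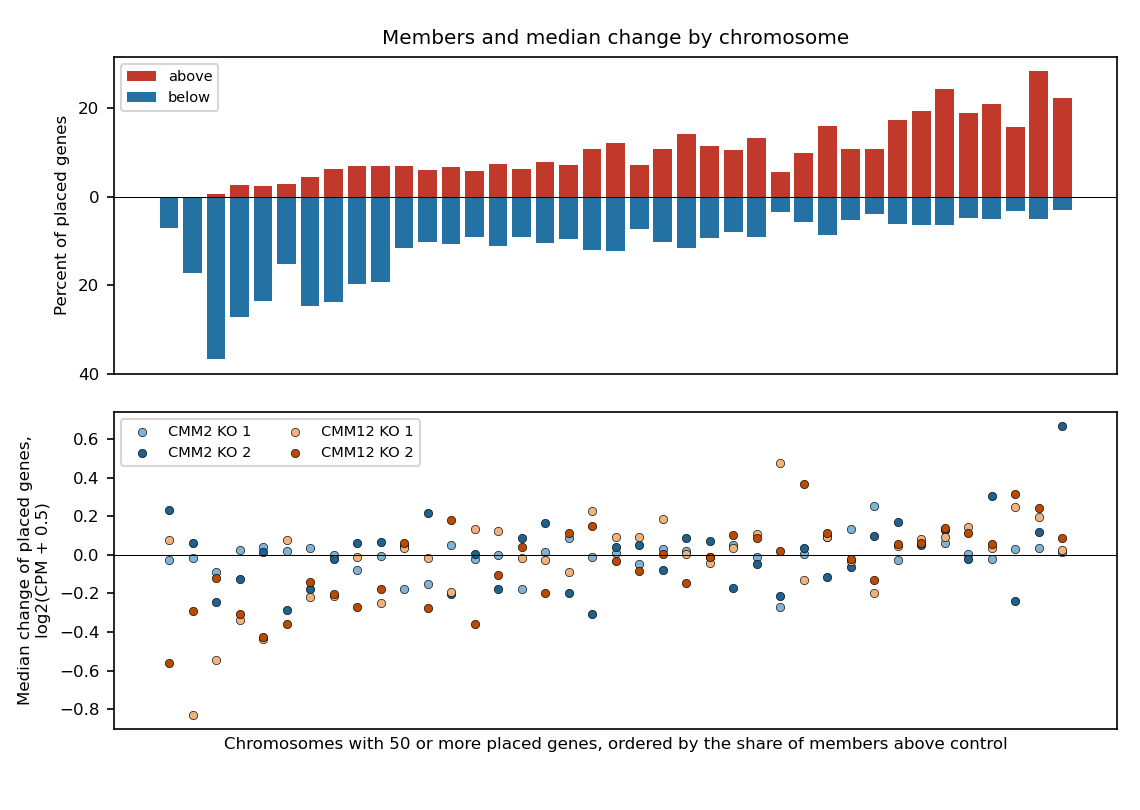
Upper panel: percent of placed genes on each of 39 chromosomes that lay above (red) or below (blue) control in all 4 KO libraries. Lower panel: the median change of the same chromosome's genes in each KO library, in log2(CPM + 0.5). Chromosomes are ordered by the share of members above control, and at the left, where members lay below, the CMM12 medians reach −0.83.

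The rule has 2 thresholds. Just inside the condition on sides were PPIL4, TBX20 and DHX57, whose smallest changes were 4e-05, 6e-05 and 8e-05. Just outside were TMED9, TULP3 and MGAT2, with 1 library across its control by 0.00011, 0.00017 and 0.00032. At the count minimum, 16 genes entered with a deciding count of 10, among them ASIC3, CFAP45 and CITED1. A further 22 genes on 1 side in all 4 libraries had a deciding count of 9 and stayed out.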

How the data were processed

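RNA of 6 libraries was measured by RNA sequencing. Per the submitters' processing notes, the tools were STAR 2.7.3a with RSEM 1.3.3, on CanFam3.1. For the strand setting, not given in the sources used here, neither choice can be assumed, so a gene and its antisense partner cannot be told apart, nor can near-identical copies. Expected counts per gene and TPM, scaled for length within a library, were deposited by the authors, per the file headers. Expected counts were rounded, which altered 3.22% to 3.63% of the values of a library.

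CPM were computed with TMM factors. edgeR 4.0.16 (glmQLFit, glmQLFTest) in R 4.3.3 was fitted on the 12270 genes kept by filterByExpr, with Benjamini-Hochberg adjustment at 0.05. The KO effect and the contrast of lines came from a model of line and genotype, and the KO numbers from a model of line and state (control, KO 1, KO 2). DESeq2 1.42.0, other scalings, count minimums and leaving out each KO library were alternatives. Nothing in the labels says that KO libraries are separate cultures, so p-values reflect only how much these libraries vary. The edgeR fits were tested on simulated counts with 100 genes changed at each size. At a log2 change of 1, they recovered 41 between lines, 23 between KO numbers and 33 for the KO effect. Changes of that size were thus mostly missed. At a log2 change of 2 they recovered 91, 91 and 93. Unchanged genes called in error numbered 23, 20 and 11 in the same order.

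The genes and the 41 gene lists were chosen with earlier results of these data known. Lists overlap, so a gene can count in more than 1, as P4HA1 and P4HA2 do in the collagen and hypoxia lists. Named are PDPN, the 15 genes with a symbol highest and the 15 lowest by the smallest of the 4 changes, up to 4 genes per list and direction by that rank, genes at the thresholds, and up to 5 per direction called between lines. Further genes of a list, the DESeq2 calls between KO numbers, neighbouring runs and the gene without a symbol were named after their values were seen. A few genes and 1 list that this would name are not reported here. Sequences were not used here, so the planned description of promoters and proteins was not made. Within each line, every pair of libraries differed by more than sampling noise, with a chi-square of 14.8 to 60.6 times its degrees of freedom. Counts and floors carry counting error only.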

Additional observations from a re-analysis of the deposited data

How the results depend on the processing

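The count of genes above control (1155) stayed between 1041 and 1403 under plain library totals, median-of-ratios factors, TPM, count minimums of 20, 5 or none, and unrounded counts, and that of genes below (1201) between 1164 and 1441. Requiring 1.2-fold, 1.5-fold or, added after seeing the data, 2-fold gave 236, 54 and 7 above and 131, 16 and 6 below. Leaving out 1 KO library, which leaves 3 to agree, gave 1584 to 1963 above and 1606 to 1896 below. Members called between the lines (712) were 868 with DESeq2, 709 with median-of-ratios factors and 725 with a robust fit, and 319 to 651 with 1 KO library left out. Over all genes that count (3170) was 1499 to 3096 with 1 left out. KO number 2 against 1 gave 6 members and 27 genes with DESeq2 (0 with edgeR), 4 genes without a filter on low counts, and 0 to 6 members and 0 to 58 genes with 1 library left out, the highest without CMM12 KO 2. The KO effect (0 genes with edgeR) gave 9 genes with DESeq2, 15 without a filter, and 0 to 1 with 1 library left out. The cause of these shifts was not tested.

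With the KO number as a replicate block, 1 gene was called for the KO effect and 640 members between the lines. The difference of KO 2 from KO 1 correlated between the lines at r = 0.0575 across 8593 genes, which are not independent replicates. This value cannot tell whether a KO number means the same in both lines, which the labels do not say. Of 98 named genes, none reversed its mean change under any scaling. With a KO library left out none reversed either, but for a member this was fixed in advance. The rule puts all its changes on 1 side, so the mean of those left cannot change sign. In TPM, 3 moved by more than the spread of their changes, PTPRD to −1.01, PCDHB16 to 0.81 and ENSCAFG00000003126 to 9.57. With the chromosome median subtracted, an alternative added after seeing the data, 1099 genes lay above and 1117 below, against 996 and 1055 placed before. Depth limits genes such as PTPRD, SLCO4A1, PCDHB16, RAB30, MBP and NXPH4, which rest on under 35 counts in each control. Both changes of a line share 1 control, so the SD of a gene's changes does not fully hold the counting error of the controls.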

Other observations

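Some gene families outside the lists, chosen after their values were seen, leaned to the lower side. Of 31 eligible proteasome subunit genes, which encode the cell's main protein-degrading complex, 8 lay below control in all 4 KO libraries and 0 above, with a median change of −0.10. Of 18 nucleoporin genes, whose products build the nuclear pore, 6 lay below and 0 above (median −0.24). Mitochondrial ribosomal proteins had 13 of 61 below and 4 above, splicing factors of the SF3, SRSF, SNRP and HNRNP families 8 of 44 below and 1 above, and aminoacyl-tRNA synthetases 3 of 15 below and 0 above. Zinc finger genes, the family with the most eligible genes of those counted, had 50 of 283 below (17.7%) and 24 above (8.48%), against 11.4% and 10.9% of all eligible genes. RAB GTPases, which direct vesicle traffic, had 7 of 52 above and 3 below, subunits of the proton pump that acidifies lysosomes 3 of 13 above and 1 below, and solute carriers 21 of 178 above and 18 below.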
